A study of Mus musculus with 12 samples.

Results

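The granin family genes Chga, Chgb, Scg2, Scg3, Scg5, Vgf and Pcsk1n were followed across the islet cells of adult mice. These 7 genes were chosen by name and not by a threshold on their values, among 31055 genes in the single-cell files and 45808 genes in the bulk table. Granins are acidic proteins that are packed with the hormones into the dense-core secretory granules of endocrine and neuroendocrine cells. Some are cut by prohormone convertases into bioactive peptides, some help to form the granule and others act on the convertases themselves. All hormone-producing cells of the islet make such granules, so granin transcripts are general markers of endocrine cells.

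Single cells came from Ppy-YFPi mice of mixed background, which carry Ppy-rtTA, TetO-Cre and R26-YFP. In these animals the transactivator rtTA stands in the Ppy locus, so that doxycycline (DOX) leads to lasting YFP expression in the γ-cells and other cells that express Ppy (pancreatic polypeptide) at that time. DOX at 1 mg/ml in the water began a month before the islet cells were isolated at the age of 2 months. The paper's methods give it for 2 weeks, so it had ended before the isolation. YFP+ and YFP- cells were sorted and run as separate libraries in 2 experiments. This gave 4 libraries of 1300 to 1689 cells and 10683494 to 18330975 unique molecular identifiers (UMIs). Experiment 2 is the one whose libraries are numbered 2 in their titles. Bulk libraries came from sorted YFP+ γ-cells of the same genotype (n = 5) and from sorted δ-cells of Sst-Cre;R26-YFP mice (n = 3), for which the labels give the same age, background and DOX. The γ-cell sort collected every YFP+ cell, bihormonal cells included. A rtTA knock-in takes the place of the Ppy coding sequence on its allele, and no bulk library came from animals without a transgene.

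Cells were put into classes by the hormones they expressed. Of 5982 cells, 120 were removed as doublets and 1427 because their cluster was led by genes of non-endocrine cells, and 4435 were kept. Any pair of libraries shared 1 to 6 cell barcodes. A cell counted as positive for Ppy above 3.09, for Sst above 3.59, for Gcg above 4.96 and for Ins2 above 6.20 in natural-log expression per 10000 UMIs, the low points between the lower and upper modes of each hormone. This gave 3886 cells in 4 monohormonal classes, Ppy+, Gcg+, Ins2+ and Sst+ (γ-, α-, β- and δ-cells), and in 3 bihormonal classes, Ppy+Gcg+, Ppy+Sst+ and Ppy+Ins2+. The classes were rebuilt here rather than taken from an annotation, so a difference from the study may come from them. The granin genes took no part in the clustering or the doublet calls. The summed markers of each hormone lineage were highest in the class of that hormone, but Cckbr of the δ-cell list had no UMI in Sst+ cells. These lists hold the hormones that set the classes, so this order followed from the class definition and is no check of it.

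Between 39 and 701 cells made up a class in one experiment, with a median depth of 2952 (Sst+) to 23879 UMIs (Ins2+) per cell. Ppy+ cells came almost wholly from the YFP+ libraries (all but 9), whereas Gcg+, Sst+ and all but 1 of the Ins2+ cells came from the YFP- libraries, so that hormone class and sorted library cannot be told apart in these comparisons. UMIs were summed per class and experiment, and the 14 sums were compared with edgeR's quasi-likelihood test with the experiment as a block. Levels are given as CPM (counts per 1000000 UMIs of the sum) after TMM normalisation, a scaling on the genes that do not differ strongly between sums. This choice weighs on the results because the hormones themselves took 22.6% (Sst+) to 75% (Ins2+) of all UMIs of a sum. A gene was called different at a Benjamini-Hochberg adjusted p of at most 0.05 together with a log2 fold change of at least 0.72, which is 0.5 on the natural-log scale. The p-values and standard errors rest on a spread shared by all 14 sums and on 39.9 prior degrees of freedom borrowed from other genes. They do not measure the spread of the 2 sums of a class alone.

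The genes lie on 6 chromosomes (GRCm38, GENCODE positions). Chga is at chr12:102554969-102565028 on the plus strand, Chgb at chr2:132781278-132795079 on the plus strand and Scg2 at chr1:79434669-79440120 on the minus strand. Scg3 lies at chr9:75643189-75684056 on the minus strand, Scg5 at chr2:113776362-113829121 on the minus strand, Vgf at chr5:137026392-137033351 on the plus strand and Pcsk1n at chrX:7919822-7924410 on the plus strand. The last 135 bases of Pcsk1n overlap an exon of Eras on the opposite strand, and Eras had at most 0.0941 CPM in any bulk library. Scg3 shares its span, but no exon, with the unclassified gene Gm37871.

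Promoter sequences of 6 members are in the RefSeq table for GRCm38.p6, which gives 250 bases before and 50 after each start. The motif of cAMP-responsive promoters, the palindrome TGACGTCA, and its half-site TGACG, which lies within the palindrome, were searched on both strands, together with the TATA motif TATAAA. TGACGTCA was found in the promoters of Chgb and Scg2, which are shown here. These 2 genes also had the highest correlation among the members over the 14 sums, in CPM of total UMIs. Whether the motif has a part in these levels was not tested. Capitals mark the palindrome, 72 bases before the RefSeq start in Chgb (chr2:132781392-132781691, plus strand) and 68 bases before it in Scg2 (chr1:79439977-79440276, minus strand).
Chgb: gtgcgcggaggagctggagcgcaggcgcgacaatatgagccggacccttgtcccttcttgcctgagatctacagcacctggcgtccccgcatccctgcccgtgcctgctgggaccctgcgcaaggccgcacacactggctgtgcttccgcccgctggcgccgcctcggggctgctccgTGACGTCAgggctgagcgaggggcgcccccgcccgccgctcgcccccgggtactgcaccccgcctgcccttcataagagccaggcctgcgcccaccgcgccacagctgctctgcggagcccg
Scg2: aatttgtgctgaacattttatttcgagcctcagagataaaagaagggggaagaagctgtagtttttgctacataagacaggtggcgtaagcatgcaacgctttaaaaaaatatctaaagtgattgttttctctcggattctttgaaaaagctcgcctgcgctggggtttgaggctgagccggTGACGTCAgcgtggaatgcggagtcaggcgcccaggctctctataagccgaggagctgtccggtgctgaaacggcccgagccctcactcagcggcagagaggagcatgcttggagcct
Of 32851 promoters of this length, 1.79% held TGACGTCA. The half-site alone occurred once each in Chga (at -44) and Scg3 (at -30) and 3 times in Scg5 (at -175, 20 and 41), and was held by 20.8% of all promoters, and TATAAA occurred only in Chga (13.6% of all). None of the 3 motifs was present in the window of Pcsk1n. A match describes the letters and not a bound site.

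Each member had its own order of the islet cell classes, as the plot of levels per hormone class shows. Chga, the precursor of vasostatin and pancreastatin, was highest in cells that expressed insulin. Its normalised level was 7136 and 4842 CPM in the Ppy+Ins2+ cells of experiments 1 and 2, 4163 and 3799 CPM in Ins2+, 2731 and 1605 CPM in Gcg+, 1884 and 1615 CPM in Ppy+Gcg+, 1464 and 1580 CPM in Ppy+, 957 and 1299 CPM in Ppy+Sst+, and 873 and 630 CPM in Sst+ cells. The means of the highest and the lowest class differed 7.97-fold, the widest span among the 6 members with a measurable level. Both classes with insulin lay above every other sum and Sst+ cells below every other sum. In CPM of total UMIs, Ppy+Ins2+ cells stayed highest, but Gcg+ cells (2990 and 1856 CPM) overlapped Ins2+ cells (2119 and 2415 CPM). Of the neighbours in this order, Gcg+ and Ppy+Gcg+ overlapped between the experiments, and Ppy+ cells lay just below both.

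Chgb, the second chromogranin, ran in another order. It was lowest in Gcg+ cells, at 284 and 226 CPM, and in Ppy+Gcg+ cells, at 377 and 381 CPM. Ppy+ cells held 641 and 603 CPM and Ins2+ cells 586 and 588 CPM. Sst+ cells had the highest mean with a wide spread, 1285 and 730 CPM, next to Ppy+Ins2+ (1002 and 779 CPM) and Ppy+Sst+ cells (953 and 683 CPM), and these 3 classes overlapped. The class means spanned 3.95-fold. In CPM of total UMIs, Gcg+ cells (311 and 261 CPM) overlapped Ins2+ cells (298 and 374 CPM).

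Scg2, the precursor of secretoneurin, followed an order close to that of Chgb at its lower end. Gcg+ cells had 283 and 348 CPM and Ppy+Gcg+ cells 633 and 922 CPM, both below every other class. Ppy+ cells held 1058 and 1381 CPM, Ppy+Sst+ cells 1401 and 1270 CPM, Sst+ cells 1944 and 1184 CPM, Ppy+Ins2+ cells 1638 and 1594 CPM and Ins2+ cells 2415 and 1883 CPM. Neighbours from Ppy+ to Ppy+Ins2+ overlapped in the order of means. The class means spanned 6.82-fold. In CPM of total UMIs, Sst+ cells were highest (2819 and 1936 CPM), without overlap with Ins2+ cells (1229 and 1197 CPM).

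Scg3, which binds Chga and the cholesterol-rich granule membrane, was highest in the cells with insulin. It stood at 721 and 643 CPM in Ins2+ and at 551 and 558 CPM in Ppy+Ins2+ cells. The other 5 classes ranged from 229 CPM (Sst+, experiment 2) to 374 CPM (Ppy+, experiment 2), and Ppy+ cells were above the other 4 of them with 369 and 374 CPM. The class means spanned 2.50-fold. In CPM of total UMIs, Sst+ cells (458 and 375 CPM) overlapped Ins2+ cells (367 and 409 CPM).

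The 2 members that act on convertases differed from the chromogranins and from each other. Scg5, also called 7B2, is a chaperone and inhibitor of the convertase Pcsk2. It had its highest mean in Ppy+ cells, with 1923 and 1585 CPM, followed by 1927 and 933 CPM in Gcg+, 1632 and 1126 CPM in Ppy+Gcg+, 1642 and 946 CPM in Ppy+Ins2+, 1484 and 610 CPM in Ins2+, 984 and 780 CPM in Ppy+Sst+ and 989 and 465 CPM in Sst+ cells. In all 7 classes Scg5 was higher in experiment 1, by 1.21- to 2.43-fold. Only the orders within an experiment are therefore read here, and Sst+ cells were lowest in experiment 2 and next to lowest in experiment 1. In CPM of total UMIs, Ins2+ cells were lowest in both experiments (755 and 388 CPM), below Sst+ cells (1434 and 760 CPM).

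Pcsk1n, whose product proSAAS inhibits the convertase Pcsk1, was highest in Gcg+ cells, at 474 and 850 CPM, and next in Ppy+Gcg+ cells, at 433 and 523 CPM. The other classes were close to each other, with 368 and 449 CPM in Ppy+Ins2+, 293 and 428 CPM in Ins2+, 256 and 332 CPM in Ppy+, 211 and 369 CPM in Sst+ and 253 and 319 CPM in Ppy+Sst+ cells. Pcsk1n was higher in experiment 2 in all 7 classes, by 1.21- to 1.79-fold, the reverse of Scg5. In CPM of total UMIs, Gcg+ cells stayed highest (519 and 983 CPM). The other classes were less close on that scale, with Sst+ cells at 306 and 604 CPM and Ins2+ cells at 149 and 272 CPM.

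Vgf, a neuropeptide precursor, was barely detected in single cells. Ppy+ cells held 2 UMIs of it in experiment 1 and 0 in experiment 2, Gcg+ cells 10 and 15, Ins2+ cells 24 and 0, Ppy+Gcg+ cells 3 and 1, and the remaining classes at most 1 in an experiment. It did not pass the filter on low counts, so that 6 of the 7 members were tested.

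**Figure D1:**
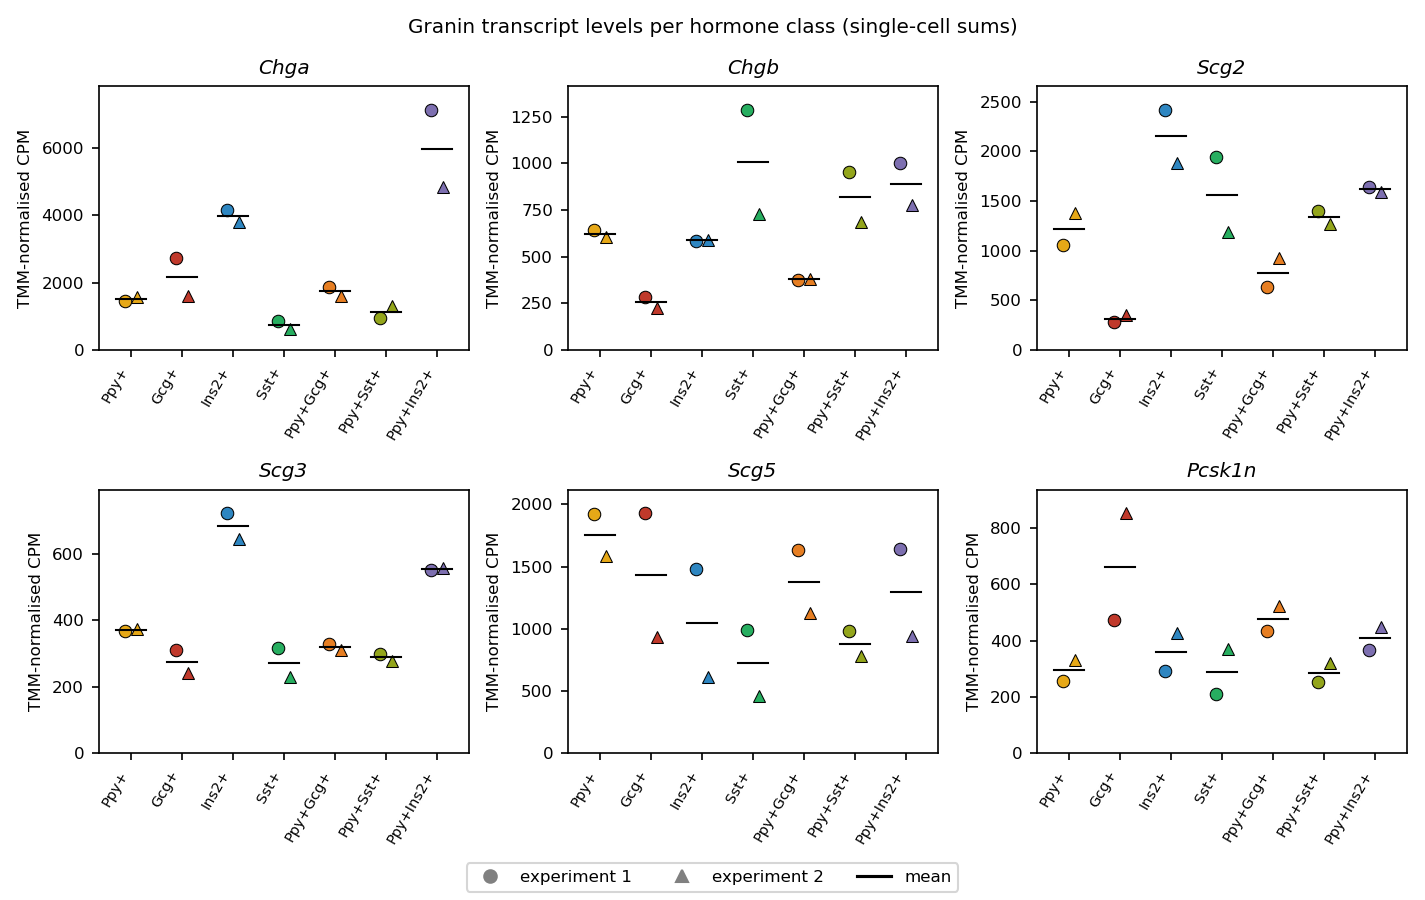
TMM-normalised CPM (vertical axes, from 0) of 6 granin genes in the 7 hormone classes, with circles for experiment 1, triangles for experiment 2 and a line at their mean. Chga is highest in both classes with insulin (4842 to 7136 CPM in Ppy+Ins2+, 3799 to 4163 CPM in Ins2+), Chgb and Scg2 are lowest in Gcg+ cells, and Pcsk1n is highest there. Scg5 lies higher in experiment 1 and Pcsk1n higher in experiment 2 in all 7 classes.

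Granin transcripts were also counted in the cells of the clusters removed as non-endocrine. Each cell was thinned to 1000 UMIs, since the classes differed in depth. Between 60.4 and 97.6% of the cells of a hormone class and experiment then held a Chga UMI, against 1.5 to 21.3% of the cells of 5 clusters led by Lyz2, Dcn, Fabp4, Jchain or Ctrb1, genes of myeloid, stromal, endothelial, plasma and acinar cells. For Scg5 these ranges were 25.3 to 88.9% and 1.8 to 11.3%, and for Scg3 23.8 to 48.7% and 0 to 5.5%. The Lyz2-led cluster was mixed, with Tff3 and Fcgbp of the ductal list among its 10 leading genes. All non-endocrine cells of the YFP+ libraries, 47 and 116 in experiments 1 and 2, had higher shares, with a Chga UMI in 44.7 and 25.9% and a Scg5 UMI in 31.9 and 22.4%, and the higher of these Scg5 shares lies within the range of the hormone classes. Median depth before thinning was 1618 to 11131 UMIs in the non-endocrine clusters. Pcsk1n was the member nearest to this background. A UMI was held by 13.8% of Ins2+ cells of experiment 1 (exact 95% interval 10.7 to 17.4%). Of the Ctrb1-led cells, 14.6% (7.80 to 24.2%) held one in experiment 2, but 3.49% (0.725 to 9.86%) in experiment 1. Lyz2-led cells of experiment 1 had a share of 6.38% (2.96 to 11.8%). All non-endocrine cells of the YFP- library of experiment 1 had 1.21% (0.395 to 2.81%), below the Ins2+ cells sorted into it. In Ppy+ cells of experiment 1 the share was 19.8% (16.7 to 23.1%), against 19.1% (9.15 to 33.3%) of the non-endocrine cells of the YFP+ library. The share of Ppy+ cells was thus not above that of these cells in experiment 1, while experiment 2 gave 24.4 and 9.48%. In CPM of total UMIs, Pcsk1n stood at 213 and 277 in Ppy+ cells and at 286 and 265 in those non-endocrine cells. They are no clean background, since they also held Chga at 866 and 1021 CPM. Non-endocrine cells of the YFP- libraries held it at 112 and 193 CPM. Without thinning, 92.6% of the Ins2+ cells of experiment 1 and 37.8% of the Ctrb1-led cells of experiment 2 held a Pcsk1n UMI, at median depths of 23879 and 4494.5. These intervals cover counting error only.

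Summed over the 7 genes, granins made up 0.475 and 0.489% of the UMIs of Ppy+ cells in the 2 experiments, before any normalisation. Ins2+ cells (0.492 and 0.505%) and Ppy+Gcg+ cells (0.554 and 0.513%) were near this share. Sst+ cells held 0.815 and 0.590%, Gcg+ cells 0.658 and 0.487%, Ppy+Sst+ cells 0.651 and 0.601% and Ppy+Ins2+ cells 1.00 and 0.875%. Non-endocrine cells of the YFP+ libraries held 0.293 and 0.331%, and those of the YFP- libraries 0.0269 and 0.0657%.

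Ppy+ cells were first compared with the other monohormonal classes, the question being which granins set γ-cells apart. Over all 6 pairs of monohormonal classes, 22 of 42 combinations of member and pair were called, with Vgf among the 42 but not tested. Against Gcg+ cells, Ppy+ cells were higher in Scg2 and Chgb and lower in Pcsk1n. Scg2 differed by a log2 fold change of 1.95 ± 0.169 (SE), with an adjusted p of 4.86e-13 by edgeR's quasi-likelihood test, Chgb by 1.30 ± 0.141 (adjusted p = 3.76e-10) and Pcsk1n by -1.13 ± 0.128 (adjusted p = 1.24e-09). In all 3 genes the sums did not overlap, and the log2 fold changes of single experiments were 1.91 and 1.99 for Scg2, 1.17 and 1.42 for Chgb and -0.89 and -1.36 for Pcsk1n. Chga (-0.48), Scg3 (0.44) and Scg5 (0.39) stayed under the fold limit. When the sums were scaled by their total UMIs, the 3 calls held and Chga was called lower as well (-0.92). These 3 calls among 7 members stand beside 13% of all 10315 genes called in this comparison, and the members' median log2 fold change was 0.41 where that of all genes was -0.01.

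Against Ins2+ cells, Ppy+ cells were lower in Chga, Scg3 and Scg2 and higher in Scg5, which makes 4 members, while 26.9% of all genes were called. Chga differed by -1.38 ± 0.161 on the log2 scale (edgeR's quasi-likelihood test, adjusted p = 1.26e-09). For Scg3 the difference was -0.87 ± 0.123 (adjusted p = 1.04e-07), without overlap of the sums. Scg2 differed by -0.82 ± 0.162 (adjusted p = 5.44e-05), but by -1.19 in experiment 1 alone and -0.45 in experiment 2 alone. Scg5 differed by 0.85 ± 0.155 (adjusted p = 1.76e-05), but by 0.37 in experiment 1 and 1.38 in experiment 2, and it was not called without the experiment as a block (0.73, adjusted p = 0.207). Chgb (0.10, adjusted p = 0.629) and Pcsk1n (-0.28, adjusted p = 0.0945) were not called. The median log2 fold change was -0.55 for the members tested and 0.00 for all genes. When the sums were scaled by their total UMIs instead, of which insulin takes the most in Ins2+ cells, Scg2 and Scg3 kept their sign but were no longer called (-0.27 and -0.32). The call of Scg3 was also lost in cells thinned to 1000 UMIs (-0.62), and that of Scg2 with Bonferroni adjustment (edgeR's quasi-likelihood test, adjusted p = 0.0677).

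Against Sst+ cells, Ppy+ cells were higher in Scg5, by 1.36 ± 0.164 on the log2 scale (edgeR's quasi-likelihood test, adjusted p = 1.11e-08), and in Chga, by 1.03 ± 0.170 (adjusted p = 8.82e-06). The sums of both genes did not overlap, and single experiments gave 0.96 and 1.77 for Scg5 and 0.75 and 1.33 for Chga. Chgb had a lower value in Ppy+ cells (-0.67, adjusted p = 0.000528) but missed the fold limit. Scg2 (-0.36), Scg3 (0.45) and Pcsk1n (0.05 ± 0.151, adjusted p = 0.897) were not called. Of all genes, 10.6% were called here. Scaled by total UMIs, Chga and Scg5 were no longer called (0.15 and 0.47), Chgb (-1.55) and Scg2 (-1.25) were called lower, Pcsk1n turned to -0.84, which was called, and Scg3 to -0.43, which was not. Chgb was called under 4 of 13 alternatives in all. The call of Scg5 was also lost without the experiment as a block (1.27, adjusted p = 0.0735).

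**Figure D2:**
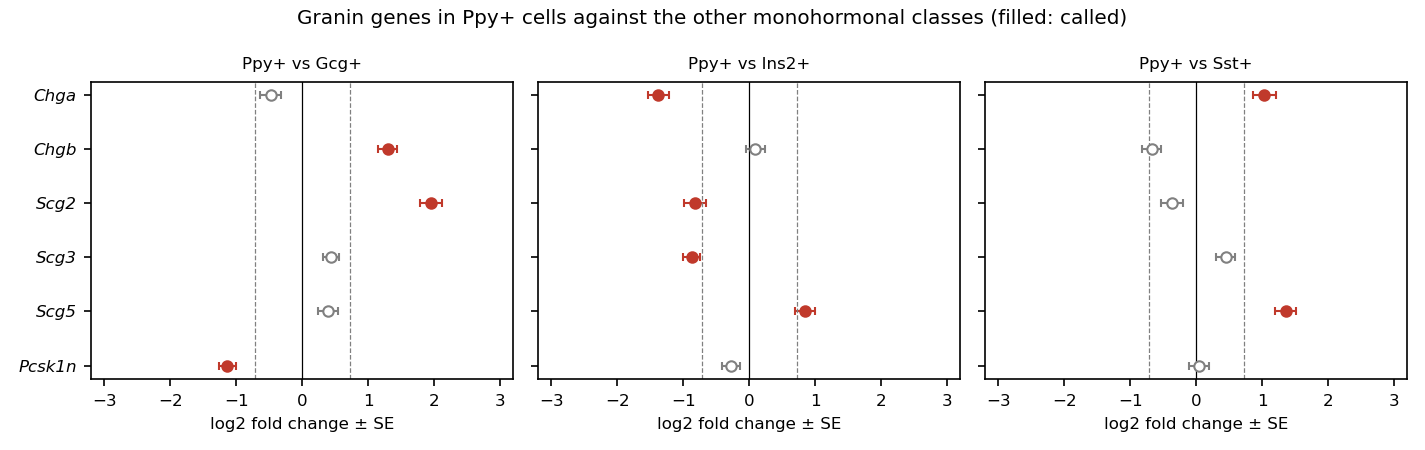
Log2 fold change with its standard error (horizontal axes) of 6 granin genes in Ppy+ cells against Gcg+, Ins2+ and Sst+ cells, from UMI sums in 2 experiments. Filled points were called, and dashed lines mark the fold limit of 0.72. Scg2 and Chgb were called higher only against Gcg+ cells and Chga only against Sst+ cells, while Pcsk1n against Sst+ cells sits near 0 and turns to -0.84 when the sums are scaled by total UMIs.

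The other monohormonal pairs placed Gcg+ cells apart in Scg2 and Chgb. Gcg+ cells were lower than Ins2+ cells in Scg2 by a log2 fold change of -2.78 ± 0.174 (edgeR's quasi-likelihood test, adjusted p = 3.83e-18), the largest change of a member in single cells. They were also lower in Scg3 (-1.31), Chgb (-1.20) and Chga (-0.90) and higher in Pcsk1n (0.86), which made 5 members called beside 22.5% of all genes. Of these, the sign of Chga turned under scaling by total UMIs (0.081), and Chgb and Scg3 were no longer called (-0.23 and -0.32). In cells thinned to 1000 UMIs, Pcsk1n was not called (0.69). Against Sst+ cells, Gcg+ cells were lower in Scg2 (-2.32) and Chgb (-1.97) and higher in Chga (1.51), Pcsk1n (1.18) and Scg5 (0.97), 5 members beside 10.9% of all genes, and all of these but Scg5 were also called under scaling by total UMIs. Scg5 was not called without the experiment as a block either (0.97, adjusted p = 0.180).

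Ins2+ cells were higher than Sst+ cells in Chga, by 2.41 ± 0.175 (edgeR's quasi-likelihood test, adjusted p = 1.81e-15), and in Scg3, by 1.32 ± 0.143, whose sign turned under scaling by total UMIs (-0.12). Chgb was lower, by -0.77 ± 0.146, with -1.13 in experiment 1 and -0.31 in experiment 2, and was not called in cells thinned to 1000 UMIs (-0.56). These 3 members stand beside 14% of all genes. Scg2 (0.46, adjusted p = 0.05001), Scg5 (0.51) and Pcsk1n (0.32) were not called, and under scaling by total UMIs they were called in the other direction (-0.98, -0.94 and -1.12).

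Bihormonal cells were compared with both of their monohormonal classes, to see which of the 2 granin patterns they carried. Ppy+Gcg+ cells stood between Ppy+ and Gcg+ cells in 5 of 6 members. Their means were 1749 ± 191 CPM for Chga, 379 ± 2.98 CPM for Chgb, 778 ± 205 CPM for Scg2, 320 ± 11.6 CPM for Scg3 and 478 ± 63.9 CPM for Pcsk1n (SD, n = 2). The Scg5 mean lay below both other means, at 1379 ± 357 CPM, but its place differed between the experiments. In experiment 1 it was below both (1632 CPM against 1923 in Ppy+ and 1927 in Gcg+ cells). In experiment 2 it was between them (1126 CPM against 1585 and 933). Against Ppy+ cells none of the members was called, while 3.17% of all genes were. Chgb (-0.71 ± 0.137, adjusted p = 0.000342 by edgeR's quasi-likelihood test) and Pcsk1n (0.71 ± 0.128, adjusted p = 0.000117) passed the adjusted p and fell just short of the fold limit, and Scg2 (-0.65, adjusted p = 0.00723) did as well. By unadjusted p, 4 of the 6 were under 0.05, and DESeq2 also called none. Neither the share of all genes under an unadjusted p of 0.05 nor the share lying between both monohormonal means was counted. This holds for the other bihormonal classes as well. The part of remaining doublets was not tested. The class also admitted cells of clusters high in Gcg without Ppy, whereas the paper kept bihormonal cells of its own bihormonal cluster alone. Of 15 alternatives, Pcsk1n was called under 5 and Chgb and Scg2 under 2 each.

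Against Gcg+ cells, Ppy+Gcg+ cells were higher in Scg2, by 1.30 ± 0.167 on the log2 scale (edgeR's quasi-likelihood test, adjusted p = 1.95e-07), 1 member beside 3.34% of all genes. The sums did not overlap. The YFP+ cells, 335 of 387 and 327 of 364 cells of the class, carried the higher level. In CPM scaled by total UMIs, Scg2 stood at 704 and 1024 in the YFP+ and at 360 and 527 in the YFP- cells of this class, and at 309 and 402 in Gcg+ cells. With YFP- libraries alone (52 and 37 Ppy+Gcg+ cells) the difference from Gcg+ cells was 0.31, with an adjusted p of 0.996. The difference between the YFP fractions was not tested.

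Ppy+Sst+ cells differed from Ppy+ cells in Scg5 alone, by -1.001 ± 0.155 on the log2 scale (edgeR's quasi-likelihood test, adjusted p = 3.48e-06), with -0.97 and -1.02 in single experiments, 1 member beside 8.15% of all genes. Scaled by total UMIs, this difference was -0.34 and no longer called, nor was it without the experiment as a block (-0.99, adjusted p = 0.209). Chgb (1.05) and Scg2 (0.81) were called higher in Ppy+Sst+ cells under scaling by total UMIs. The Scg5 levels of 984 and 780 CPM were near those of Sst+ cells in experiment 1 (989 CPM) and above them in experiment 2 (465 CPM). Against Sst+ cells no member was called, beside 0.427% of all genes, and 3 of 6 members had an unadjusted p under 0.05 (Chga, 0.62; Scg5, 0.36; Chgb, -0.30). DESeq2 also called none there. The Ppy+Sst+ means lay between both monohormonal means for every member except Pcsk1n, which lay below both at 286 ± 47.1 CPM. In CPM of total UMIs, Pcsk1n lay between and the Chga mean above both (1486 against 1268 in Ppy+ and 1148 in Sst+ cells). The class held 245 YFP+ cells, with Chgb at 980 and 825 of these CPM, and 130 YFP- cells, with 1832 and 1223. Sst+ cells had 1864 and 1193. Chga was alike in both fractions of experiment 1 (1284 and 1287). Neither this split nor the part of remaining doublets was tested.

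Ppy+Ins2+ cells carried the highest Chga level of any class. They exceeded Ppy+ cells by 1.95 ± 0.164 on the log2 scale (edgeR's quasi-likelihood test, adjusted p = 4.60e-13), 1 member beside 7.74% of all genes. This was the only bihormonal call that held under every alternative setting of the fit, at 1.70 to 2.03 over 14 settings. Single experiments, which have no test, gave a wider range, with 2.285 in experiment 1 alone and 1.615 in experiment 2 alone. The alternative with bihormonal cells of clusters high in Ppy alone could not be run for this class. Fewer than 10 of its cells per experiment lay there, so most lay in clusters high in Ins2. One of the clusters high in Ins2 had Chga among its 10 leading genes. The paper left out bihormonal cells outside its own bihormonal cluster, a step not repeated here. It reported Chga as enriched in all 3 Ppy+ bihormonal types, and at protein level in Ppy+Gcg+ and Ppy+Ins2+ cells. Here Chga was not called against Ppy+ cells in Ppy+Gcg+ (0.19, adjusted p = 0.608 by edgeR's quasi-likelihood test) or Ppy+Sst+ cells (-0.42, adjusted p = 0.0886). Classes and test were not those of the paper, and the difference from it was not tested. Against Ins2+ cells no member was called, beside 3.61% of all genes, but Chga (0.58, adjusted p = 0.0246) and Chgb (0.61, adjusted p = 0.00770) had higher values, and 5 of the 6 members had an unadjusted p under 0.05. DESeq2 also called none. Both Chga and Chgb were called when the fold limit was lowered to 0.5 and under scaling by total UMIs (1.19 and 1.22). With YFP- libraries alone they were called as well (1.32 and 1.22), but there the class was a single sum of 11 cells of experiment 1, assumed to vary like the other sums, since the 3 cells of experiment 2 were under the minimum for a sum. The means of Chga, Chgb and Pcsk1n in Ppy+Ins2+ cells lay above those of both monohormonal classes, and Scg2, Scg3 and Scg5 lay between. This was the smallest class, with 82 and 39 cells and a median depth of 10977 and 7705 UMIs, against 7821 and 5936 in Ppy+ and 23879 and 12435 in Ins2+ cells, and the part of remaining doublets in these levels was not tested.

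**Figure D3:**
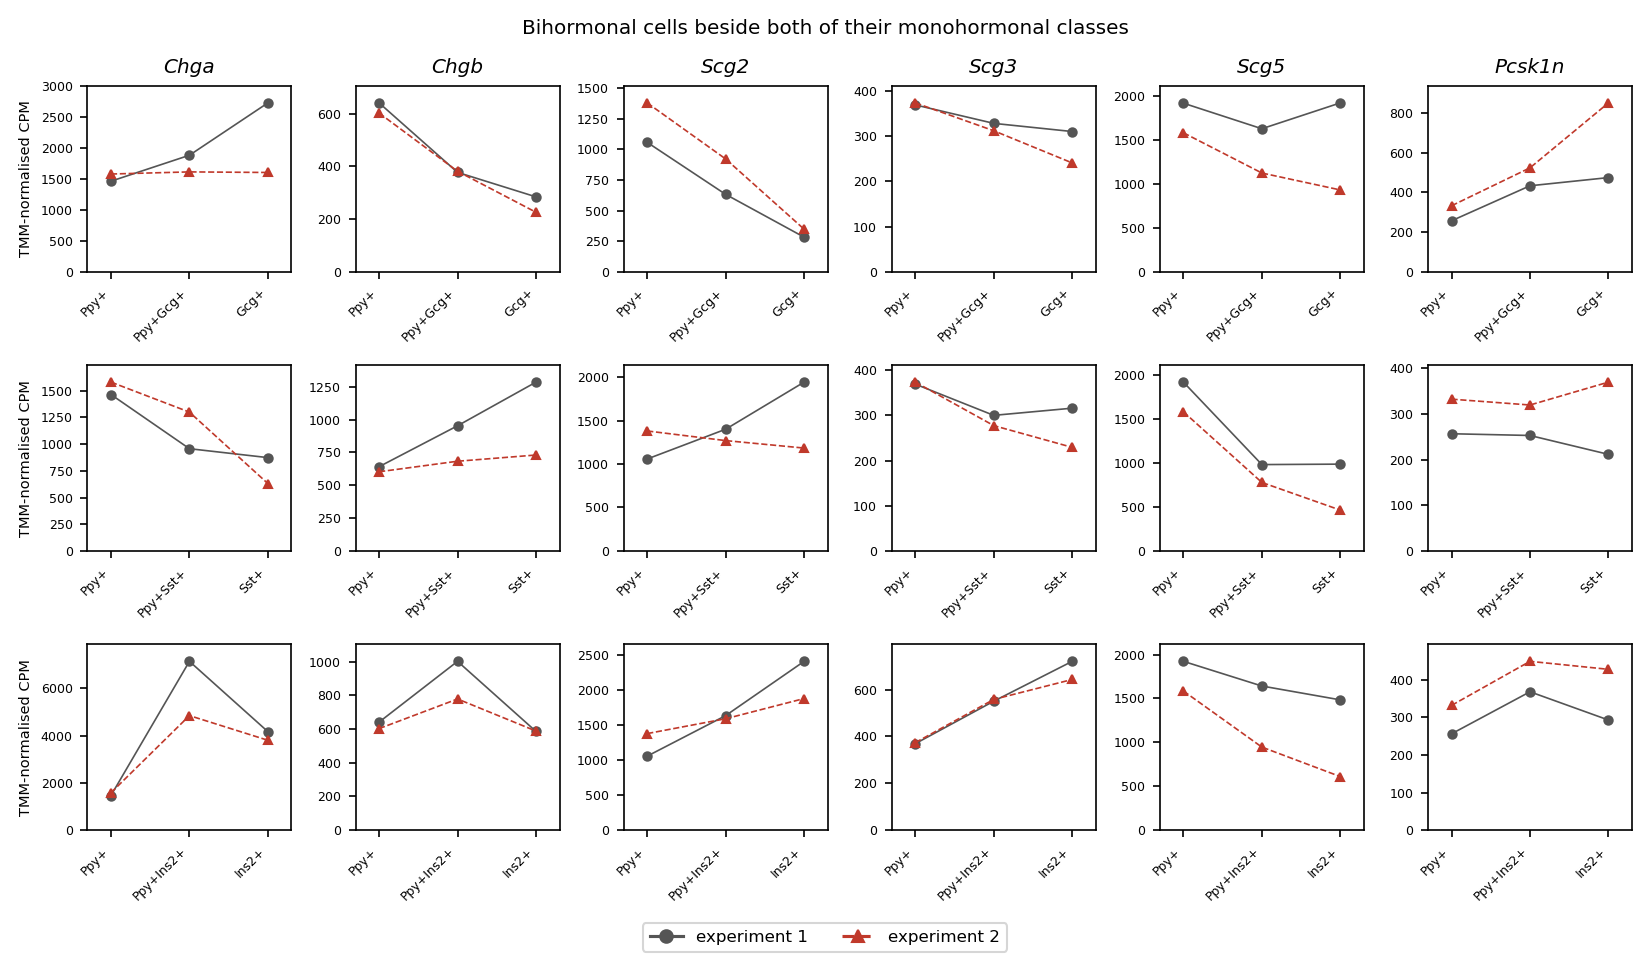
TMM-normalised CPM (vertical axes, from 0) of 6 granin genes in each bihormonal class, drawn between its 2 monohormonal classes, with circles and full lines for experiment 1 and triangles and dashed lines for experiment 2. In the top row Chgb, Scg2 and Pcsk1n step through Ppy+Gcg+ cells from the Ppy+ to the Gcg+ level, and in the bottom row Chga peaks in Ppy+Ins2+ cells at 7136 and 4842 CPM.

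The likeness of the members' profiles was described over the 14 sums, on log2 CPM scaled by total UMIs. These sums share libraries, depth and the hormones' share of UMIs, and no test was made. The likeness was not computed on TMM-normalised levels, where the order of the pairs may differ. Among the members, Chgb and Scg2 were most alike (Pearson's r = 0.83), followed by Scg2 and Scg3 (0.64) and Chgb and Scg3 (0.59), while Chga had its highest r with Scg3 (0.48) and -0.25 with Chgb. Scg5 and Pcsk1n had an r of 0.15.

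Among 1421 other genes with a mean of at least 50 CPM, the closest to Chga were Wls (r = 0.77), Ero1lb (0.72), an oxidase of the endoplasmic reticulum of β-cells, and Hepacam2 (0.71). Chgb was closest to Selenom, Rab3b, a small GTPase of secretory vesicles, and Clu (0.94 each). Scg2 was closest to the signal peptidase subunit Sec11c (0.94), S100a10 (0.93) and Hadh (0.91). Scg3 went with the chaperone Hspa5 (0.86), the transcription factor Mlxipl (0.84) and Zdhhc2 (0.83), and Scg5 with 1500011B03Rik (0.92), the proteasome subunit Psmb2 (0.87) and Cpq (0.87). For Pcsk1n the closest were Hspe1, Rpl27 and Ybx1 (0.91 each). The profile of Vgf rests on few UMIs, and its closest genes were mt-Nd4l (0.76), Sphkap (0.76) and mt-Nd3 (0.68).

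Other genes of the granule were placed beside the granins in 3 lists: 6 genes of prohormone processing, 12 of the granule membrane and its formation, and 16 of docking and release. All were tested. Against Gcg+ cells, Ppy+ cells were higher in 2 and lower in none of the 6 processing genes, higher in 3 and lower in 2 of the 12 membrane genes and higher in 3 and lower in none of the 16 release genes. These counts stand beside 13% of all genes called. Pcsk1, the convertase that Pcsk1n inhibits, was among the higher genes, with 12.4 CPM in Ppy+ cells and 3 UMIs in all Gcg+ cells. Slc30a8, the zinc transporter of the insulin granule, stood at 15.3 CPM in Ppy+ and 529 CPM in Gcg+ cells (log2 fold change -5.11).

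Against Ins2+ cells the counts of higher and lower genes were 1 and 3 for processing, 1 and 3 for the membrane and 2 and 5 for release, beside 26.9% of all genes called. Pcsk1 was lower in Ppy+ cells by -3.66 on the log2 scale (157 CPM in Ins2+ cells), Slc30a8 by -5.05 (506 CPM) and the granuphilin gene Sytl4, which docks granules, by -6.92 (0.803 against 106 CPM). The syntaxin gene Stx1a of the fusion machinery was higher, by 3.36 (13.9 against 1.85 CPM). Against Sst+ cells the counts were 1 and 0, 2 and 1, and 1 and 3, beside 10.6% of all genes called. The priming factor gene Cadps had 72.3 CPM in Ppy+ cells and 2 UMIs in all Sst+ cells, Qpct, which forms pyroglutamate at peptide ends, had a level in Ppy+ cells at least 4.09-fold higher than the 3 UMIs that a count of 0 in Sst+ cells allows over the group, and Rab3b was lower, by -2.10.

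Between the other monohormonal classes, the counts for processing, membrane and release were 0 higher and 2 lower, 1 and 3, and 2 and 6 in Gcg+ against Ins2+ cells, 2 and 1, 1 and 0, and 1 and 2 in Gcg+ against Sst+ cells, and 3 and 0, 3 and 1, and 5 and 2 in Ins2+ against Sst+ cells. Among all genes, 22.5, 10.9 and 14% were called in these comparisons, in this order. Sytl4 had 0 UMIs in Sst+ cells and was at least 36.7-fold higher in Ins2+ cells by the same floor. Slc30a8 was higher in Gcg+ than in Sst+ cells by 5.28 on the log2 scale.

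In bihormonal against Ppy+ cells the counts for the 3 lists were 0 higher and 2 lower, 2 and 0, and 0 and 0 in Ppy+Gcg+ cells, 0 and 1, 0 and 1, and 1 and 1 in Ppy+Sst+ cells, and 1 and 0, 1 and 0, and 3 and 0 in Ppy+Ins2+ cells. Among all genes, 3.17, 8.15 and 7.74% were called in these comparisons, in this order. Slc30a8 was higher in Ppy+Gcg+ (4.05) and Ppy+Ins2+ cells (3.57), and Pcsk1 was lower in the former (-1.77) and higher in the latter (2.76). Sytl4 was higher in Ppy+Ins2+ cells, by 4.75. Rab3b was higher in Ppy+Sst+ (1.74) and Ppy+Ins2+ cells (1.35). Against the other monohormonal class the counts were 1 and 0, 0 and 1, and 0 and 0 for Ppy+Gcg+, 0 and 0, 0 and 0, and 1 and 0 for Ppy+Sst+, and 0 and 1, 0 and 1, and 2 and 2 for Ppy+Ins2+ cells. Here 3.34, 0.427 and 3.61% of all genes were called, in this order.

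Bulk RNA-seq of sorted γ- and δ-cells gave a second measurement of the granins at higher depth, with 14633838 to 31784878 counts per γ-cell and 7641916 to 11773598 per δ-cell library. Levels are TMM-normalised CPM of the library's counts, and a call required an adjusted p of at most 0.05 and a log2 fold change of at least 1. Nothing in the labels says that the libraries came from separate animals, so the p-values measure the spread between these libraries. In bulk samples, fewer cells of a type and less RNA per cell cannot be told apart. The 7 granins took 2.08 to 2.42% of the counts in γ- and 1.68 to 2.32% in δ-cells, and 6 of 7 members were called, where 35% of all 17926 genes tested were.

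Chga was higher in γ-cells. Its levels were 10004, 14364, 9027, 10399 and 11493 CPM in the γ-cell and 1255, 1757 and 1848 CPM in the δ-cell libraries, with no overlap. The log2 fold change was 2.77 ± 0.237 (edgeR's quasi-likelihood test, adjusted p = 4.22e-06). Chgb went the other way, with 2611, 2996, 2442, 2762 and 2620 CPM in γ-cells and 7995, 13050 and 9903 CPM in δ-cells. It was the only member called lower in γ-cells, at -1.94 ± 0.181 (adjusted p = 8.36e-06), again without overlap.

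Scg2 did not separate the 2 cell types. It had 5148, 5029, 5422, 5173 and 5248 CPM in γ- and 4393, 5955 and 6199 CPM in δ-cells, and the γ-cell range lay within that of the δ-cells. Its log2 fold change was -0.08 ± 0.161 (edgeR's quasi-likelihood test, adjusted p = 0.687). Scg3 was higher in γ-cells, with 1194, 1438, 1060, 1193 and 1244 CPM against 456, 607 and 655 CPM, and no overlap. Its log2 fold change of 1.097 ± 0.162 (adjusted p = 0.000238) was near the limit of 1 and fell below it without δ-cell library 1 (0.97), with upper-quartile scaling (0.81) and with total counts (0.82).

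The modulators of convertases were both higher in γ-cells. Scg5 stood at 2233, 1461, 2280, 1866 and 1534 CPM in γ- and 380, 399 and 536 CPM in δ-cells, which differed by 2.10 ± 0.215 on the log2 scale (edgeR's quasi-likelihood test, adjusted p = 1.66e-05). Pcsk1n showed the largest difference, with 1507, 2024, 1572, 2176 and 2183 CPM against 20.6, 31.5 and 35.1 CPM, or 6.02 ± 0.276 on the log2 scale (adjusted p = 6.09e-08). The groups did not overlap in either gene. Vgf was at a low level in both, with 5.06, 6.78, 1.59, 8.26 and 5.29 CPM in γ-cells against 0.339, 0 and 0.163 CPM in δ-cells, which rest on 3, 0 and 2 counts, and its log2 fold change was 5.06 ± 0.874 (adjusted p = 0.000701). It was still called without δ-cell library 1, at 5.96, and without δ-cell library 2, at 4.44. An exact two-sided permutation test over the 8 libraries gave p = 0.0357, the smallest it can give, for each member but Scg2 (p = 0.643). The share of all genes that reach this value was not counted, so it does not set the granins apart from other genes.

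**Figure D4:**
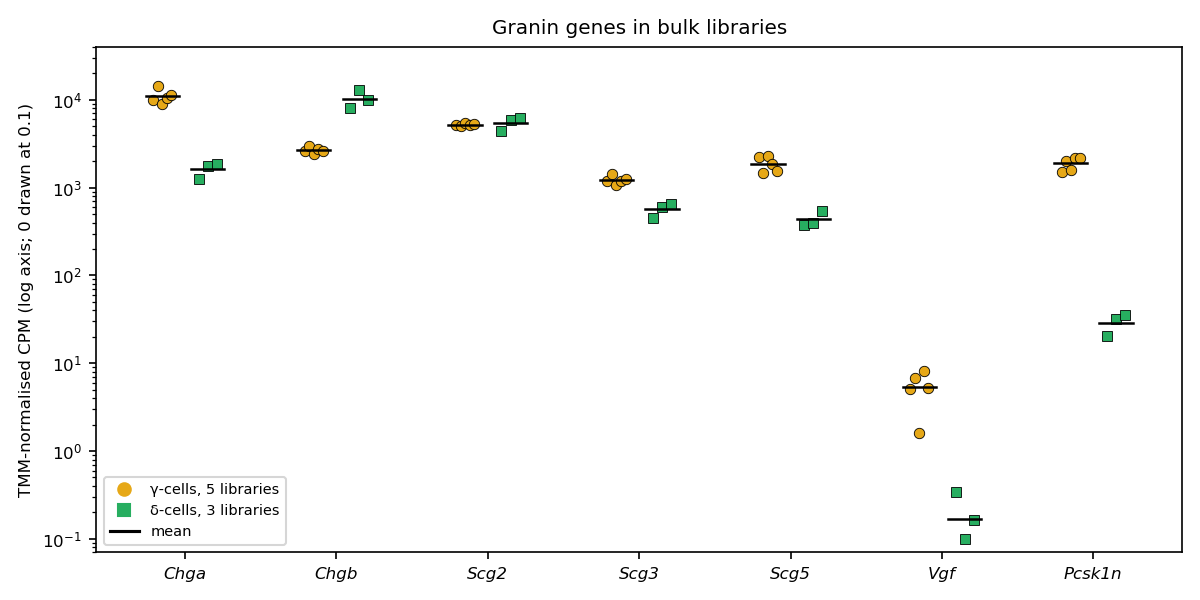
TMM-normalised CPM (vertical axis, logarithmic, 0 drawn at 0.1) of the 7 granin genes in 5 γ-cell libraries (circles) and 3 δ-cell libraries (squares), with a line at each mean. Of these 7, only Scg2 overlaps between the groups, Chgb is higher in δ-cells, and Pcsk1n stands at 1507 to 2183 CPM in γ-cells and 20.6 to 35.1 CPM in δ-cells. The share of all genes without overlap was not counted, so the lack of overlap does not set the granins apart from other genes.

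Per kilobase of exons, Chga was the most abundant granin of the bulk γ-cell libraries at 4012 CPM per kb. It was followed by Scg2 (2069), Scg5 (1195), Chgb (980), Pcsk1n (863), Scg3 (448) and Vgf (1.81). In δ-cells the order on this scale was Chgb (3765), Scg2 (2193), Chga (588), Scg5 (279), Scg3 (209), Pcsk1n (13.2) and Vgf (0.0562). The single cells gave other orders. In Ppy+ cells of experiments 1 and 2, Scg5 had 8590 and 6508 UMIs and Chga 6539 and 6487. In Sst+ cells, Scg2 had 1095 and 558 UMIs and Chgb 724 and 344. The bulk γ-cell libraries also included bihormonal cells.

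The sorted populations were not pure and differed in preparation. The 18 acinar marker genes, all detected, summed to 2655 to 15103 CPM in γ- and 29868 to 126260 CPM in δ-cell libraries. Without TMM scaling, δ-cell libraries held 10889 to 16501 CPM of Ppy, and γ-cell libraries 7119 to 11511 CPM of Sst. γ-cell libraries also held 43968 to 83707 CPM of Gcg, against 1557 to 6696 CPM in δ-cells. The part of these cells in the granin differences was not tested. The γ-cell libraries were read paired-end and the δ-cell libraries single-end on another instrument, which cannot be told apart from cell type. Of the other granule genes, γ-cells were higher in 3 and lower in none of the 6 processing genes, higher in 5 and lower in none of the 12 membrane genes and higher in 5 and lower in 1 of the 16 release genes. These counts stand beside 35% of all genes called in bulk. Carboxypeptidase E (Cpe), which trims hormone precursors, had 4872 against 736 CPM (log2 fold change 2.73), Rab2a 473 against 62.8 CPM (2.91), Cadps 187 against 11.9 CPM (3.97) and Syt5 47.7 against 139 CPM (-1.55).

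Side by side, γ- against δ-cells in bulk and Ppy+ against Sst+ cells in single cells had values of the same sign in 6 of 6 members, but of unequal size, as the plot of both assays shows. Pcsk1n in single cells (0.05 ± 0.151) and Scg2 in bulk (-0.08 ± 0.161) lay within their SE of 0, so their matching signs carry no information. The share of all genes with matching signs was not counted. The log2 fold changes were 2.77 in bulk and 1.03 in single cells for Chga, -1.94 and -0.67 for Chgb, 2.10 and 1.36 for Scg5, 1.097 and 0.45 for Scg3 and -0.08 and -0.36 for Scg2. Scaled by total counts or UMIs, the single-cell values of Scg3 (-0.43) and Pcsk1n (-0.84) had the opposite sign to bulk. For Pcsk1n the 2 assays stood far apart, with 6.02 in bulk and 0.05 in single cells. In single cells Pcsk1n was not low in Sst+ cells, at 211 and 369 CPM beside 256 and 332 CPM in Ppy+ cells. The droplet libraries count UMIs at the 3′ end and the bulk libraries reads over the whole transcript, and the bulk γ-cells included Ppy+Gcg+ cells, in which Pcsk1n had 433 and 523 CPM. The difference between the assays was not tested.

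**Figure D5:**
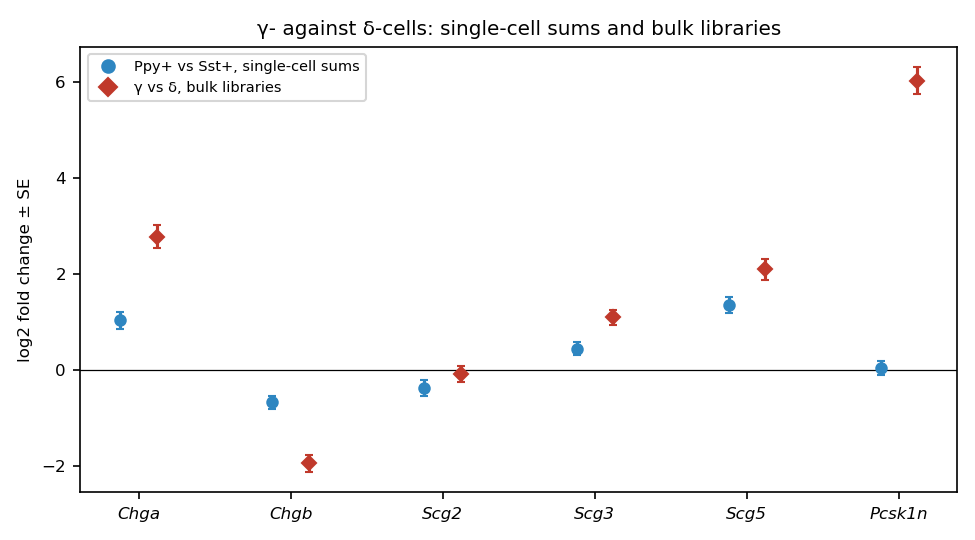
Log2 fold change with its standard error (vertical axis) of 6 granin genes, as circles for Ppy+ against Sst+ cells in single-cell sums and as diamonds for bulk γ- against δ-cells. Chga, Chgb and Scg5 point the same way in both, and Pcsk1n stands at 6.02 in bulk and 0.05 in single cells, where it turns to -0.84 and Scg3 to -0.43 when sums are scaled by total UMIs.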

How the data were processed

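Raw UMI counts from Cell Ranger 2.0.1 (Ensembl 84, mm10, with YFP and rtTA added) were deposited by the authors for filtered cells, which have at least 1001 UMIs and at most 6.97% mitochondrial UMIs. Bulk reads were aligned by the authors with STAR 2.7.2b to GRCm38.p6, and the raw HTSeq 0.9.1 counts per gene were deposited. Another 6 bulk columns, of α- and β-cells, belong to no sample of this series and were not used.

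Members and lists were chosen with earlier results of these data known. Doublets were marked by a caller on nearest neighbours modelled on DoubletFinder, without Scrublet, clusters were made with Seurat 5.3.0, and a cluster was removed when at least 3 of its 10 leading genes stood on fixed lists of non-endocrine markers. The YFP+ and YFP- libraries of an experiment came from the same mice, so the experiment was a true block. Sums were fitted together in edgeR 4.0.16 (TMM, filterByExpr), bulk genes with at least 5 counts on average likewise. All members were named throughout, from the other granule lists up to 2 called genes with the largest change per list and direction, of which those described stand in the text, and the 3 genes most like each member. The α-, β-, δ- and γ-cell marker lists, which hold the class hormones, and the non-endocrine lists were summed in classes and libraries. Shares have exact intervals. The fits were tested on simulated counts. Alternatives were other scalings, filters, thresholds and hormone limits, DESeq2 1.42.0, Bonferroni adjustment, thinning, single YFP fractions, left-out libraries and the block. Scaling by total UMIs was chosen after seeing the data.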

Additional observations from a re-analysis of the deposited data

How the results depend on the processing

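Between monohormonal classes 22 calls were made, and 19 to 24 under the alternatives. Of the 2 calls of bihormonal against Ppy+ cells, 1 was left without the experiment as a replicate block, and 4 were made with sums scaled by total UMIs, 8 at a log2 threshold of 0.5 and 4 with cells thinned to 1000 UMIs. The 1 call of bihormonal cells against their other class became 2 without the count filter, where Vgf (3 and 1 against 10 and 15 UMIs) was called, 2 with hormone genes left out of library sizes, where Vgf again was the added call, 5 with total UMIs, 4 at a log2 threshold of 0.5, 2 with thinned cells and 2 with YFP- libraries alone. These last 2 were Chga and Chgb in Ppy+Ins2+ against Ins2+ cells, from a single Ppy+Ins2+ sum of 11 cells, while the Scg2 call of Ppy+Gcg+ against Gcg+ cells was lost (0.31). Under both settings that let Vgf in, it was also called lower in Ppy+ than in Gcg+ and Ins2+ cells. With total UMIs the calls among all 10315 genes moved as well. Against Ppy+ cells they went from 327 to 888 (Ppy+Gcg+), 841 to 3456 (Ppy+Sst+) and 798 to 725 (Ppy+Ins2+). Against the other class they went from 345 to 353, 44 to 67 and 372 to 2086, in the same order. For the other alternatives the member counts are not set against all genes. In bulk, 6 calls were made, and 5 to 6 with 1 library left out. Of 31 called combinations of gene and comparison, 16 were called under every alternative. Of the 48 uncalled ones, 24 changed sign under at least 1 alternative, with or without a call there.

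Values that turned with a call on either side did so under scaling by total UMIs: Pcsk1n in Ppy+ against Sst+ cells (-0.84), Chga in Gcg+ against Ins2+ cells (0.081), and Scg2 (-0.98), Scg3 (-0.12), Scg5 (-0.94) and Pcsk1n (-1.12) in Ins2+ against Sst+ cells. That scaling moves the median of all genes by construction, to -0.44, 0.63 and -0.84 for Ppy+ against Gcg+, Ins2+ and Sst+ cells, to 1.07 and -0.40 for Gcg+ against Ins2+ and Sst+, to -1.46 for Ins2+ against Sst+, to 0.33 and 0.65 for Ppy+Gcg+ and Ppy+Sst+ against Ppy+, to -0.11, -0.20 and 0.64 for Ppy+Gcg+, Ppy+Sst+ and Ppy+Ins2+ against their other class and to -0.33 in bulk. The share of higher genes among all called ones moved with it, in Ppy+ cells from 46.9 to 9.95% against Gcg+, from 46.3 to 87.2% against Ins2+ and from 43.6 to 3.32% against Sst+ cells, and in bulk from 59.3 to 46.3%.

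The experiment as a block carried 4 calls of Scg5. Without the replicate block its differences kept their sign but were not called in Ppy+ against Ins2+ (0.73, adjusted p = 0.207 by edgeR's quasi-likelihood test) and Sst+ cells (1.27, adjusted p = 0.0735), Gcg+ against Sst+ cells (0.97) and Ppy+Sst+ against Ppy+ cells (-0.99). Each experiment alone leaves 1 sum per class, so those values have no test and no counts. In bulk the libraries share only numbers (correlations of deviations of -0.166, 0.0867 and -0.312 for equal numbers), and with them as a replicate block 6 members were still called. Vgf had too few UMIs to pass the count filter in single cells, and the Sst+ sum of experiment 2 was 288301 UMIs.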

Other observations

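The YFP fractions of the Ppy+Gcg+ cells can be set side by side in other members than Scg2, with no test of a difference between them. In CPM of total UMIs, Chga stood at 1789 and 1632 in the YFP+ and at 3324 and 2215 in the YFP- cells of experiments 1 and 2, where Gcg+ cells had 2990 and 1856. Pcsk1n was alike in the fractions of experiment 1 (452 in YFP+ and 459 in YFP- cells) and apart in experiment 2 (501 and 940), where Gcg+ cells had 519 and 983. The YFP- cells of this class numbered 52 and 37. Over the 7 members, granins took 0.534 and 0.508% of the UMIs of YFP+ and 0.696 and 0.552% of YFP- Ppy+Gcg+ cells. For Ppy+Sst+ cells the shares were 0.579 and 0.602% in the YFP+ and 0.783 and 0.597% in the YFP- libraries.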
